A study of Mus musculus with 2 samples.

Results

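The genes described here set how easily the smooth muscle of the uterine wall fires and how far its signals spread. They are the oxytocin receptor gene Oxtr, the connexin genes Gja1, Gjb2 and Gjc1, the potassium channel gene Kcnma1, the calcium channel gene Cacna1c and the calcium store genes Itpr1, Atp2a2 and Pln. These 9 genes were chosen by name. All probe sets (groups of short probes for 1 transcript) annotated to 1 of them alone were taken. Probe sets with several gene symbols were left out. The array carried 19 such probe sets for 8 of the 9 genes, out of 20380 probe sets with 1 gene symbol for 12393 genes. Itpr1 is named by no probe set in the annotation used and was not analysed here.

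The tissue was the uterus between implantation sites, where no embryo is attached. 1 sample came from Cbs null females, homozygous for loss of cystathionine beta-synthase, an enzyme that removes homocysteine, and the other from control females. Both groups were 4 months old, on day 8 of pregnancy and of mixed C57Bl/6J X OLA129 background. Each group had 1 Affymetrix array, so no difference given here has a replicate check and no p-value is given. The sources used here do not say whether an array held RNA of 1 animal or of a pool, nor which part of Cbs was altered. The genotype of the control females beyond that word is not stated either.

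In textbook terms, a myometrial contraction starts with a spike of the membrane potential carried by L-type calcium channels, and gap junctions pass that spike from cell to cell. Oxytocin adds to it through a Gq-coupled receptor, which makes inositol trisphosphate and opens the calcium store. Large-conductance potassium channels end the spike, and the store's calcium pump refills it. Through most of pregnancy the muscle is held quiet, and in rodents Oxtr and Gja1 are known to climb shortly before labour. Connexins also couple cells outside the muscle: around implantation in rodents, Gja1 is known from decidualising stroma and Gjb2 from uterine epithelium.

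Signals are linear array units, used as deposited. A signal of 43.2, the 40th percentile of both arrays together, was taken as the floor, because weaker signals have no reliable order. A probe set above the floor on at least 1 array counted as measured, and a fold against a signal below the floor is a lower bound. Log2 ratios are those of Cbs null over control. Signals of different probe sets are not compared as levels, since probes differ in brightness. The scatter between probe sets of 1 gene, called the technical SD here, was 0.22 on the log2 ratio over 2757 genes. For genes whose weaker probe set was below 4 floors it was 0.26, and for brighter pairs 0.15. It holds what differs between probe sets of a gene, while an error that they share on an array cancels out. None of the difference from mouse to mouse is in it.

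Facts of the whole arrays were as follows. Median signals were 75.6 in the Cbs null sample and 74.55 in the control sample. The log2 ratio of the 7942 genes that both arrays read above the floor had a median of 0.02 and an SD of 0.32. Cbs itself read 42.6 in the Cbs null sample and 79.8 in the control sample in its brighter probe set, a decrease of at least 1.85-fold. Its other probe set read 25.1 in the Cbs null sample and 39.8 in the control sample, both below the floor. Past the 2-fold rule, 0.797% of the 8407 measured genes were higher and 0.714% were lower in the Cbs null sample.

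Most of the excitability and gap junction genes differed little between the samples. The 7 measured genes, each by its brightest probe set, had a median log2 ratio of -0.10, against 0.02 over all measured genes. Of these 7, 1 (Gjb2) was higher by 2-fold or more and 0 were lower by as much, beside 0.797% and 0.714% of all measured genes. At 1.5-fold the counts were still 1 higher and 0 lower, beside 3.63% and 3.4% of all measured genes. Over probe sets above the floor on both arrays, 15 of 17 stood lower in the Cbs null sample, where 46.9% of all such probe sets did. The 15 were not independent, since 6 of them belong to Gja1.

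**Figure D1:**
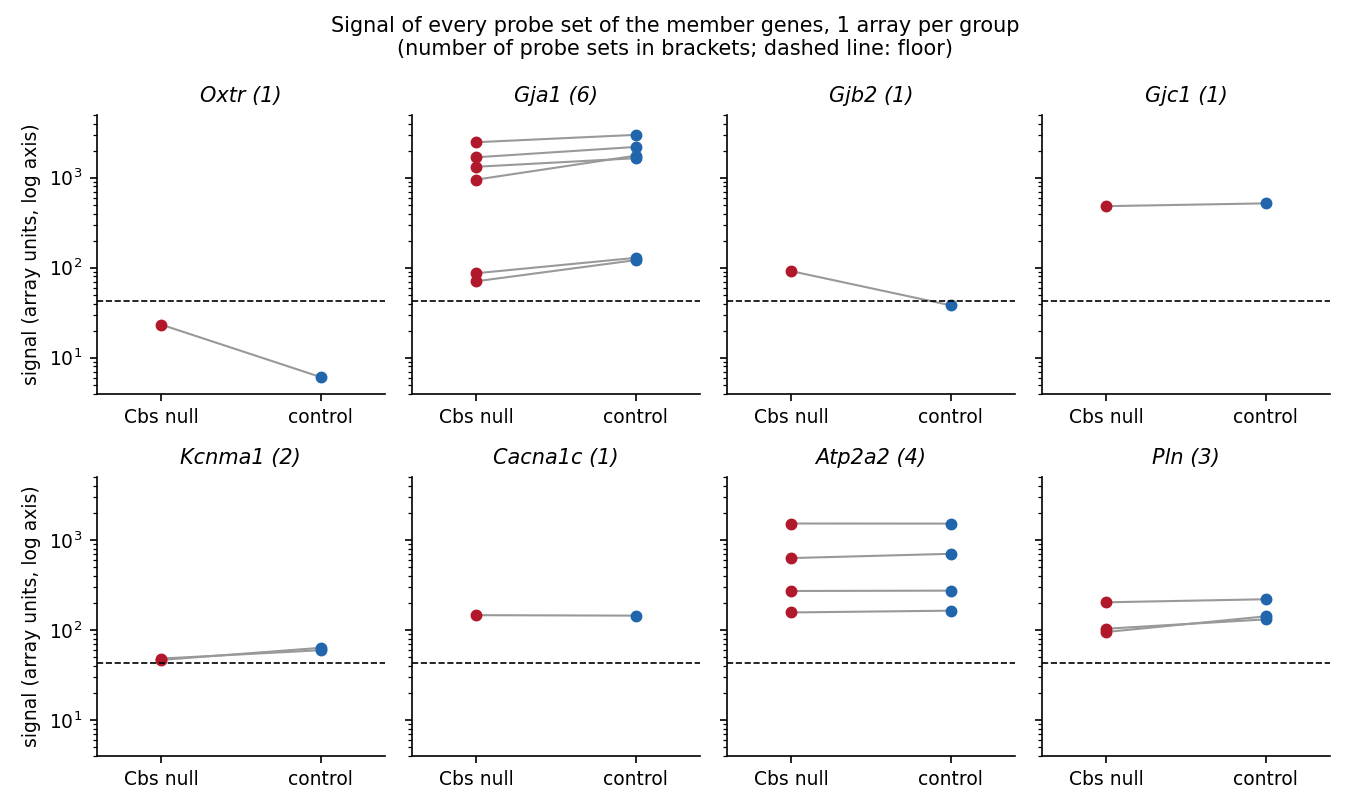
Signal (array units, log axis) of every probe set of the 8 genes on the array, with the Cbs null sample on the left and the control sample on the right of each panel. Points are single arrays joined per probe set, and the dashed line is the floor of 43.2. All 6 Gja1 lines climb towards control, those of Atp2a2 are nearly flat, and only Gjb2 crosses the floor.

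Gja1 encodes connexin 43, the main gap junction protein of the myometrium. Its brightest probe set read 2478.6 in the Cbs null sample and 2993 in the control sample, a log2 ratio of -0.27. The second brightest read 1685.7 in the Cbs null sample and 2197.5 in the control sample (-0.38). All bright Gja1 probe sets were lower in the Cbs null sample, but by unequal amounts. The third read 1322.6 in the Cbs null sample and 1647.4 in the control sample (-0.32). The fourth read 951.3 in the Cbs null sample and 1758 in the control sample, the lowest Gja1 ratio at -0.89. The dim pair went the same way. The brighter of them read 86.8 in the Cbs null sample and 128.8 in the control sample (-0.57), and the dimmer read 70.7 in the Cbs null sample and 121.5 in the control sample (-0.78).

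The 6 Gja1 probe sets averaged a log2 ratio of -0.53 ± 0.25 (SD over 6 probe sets of the same RNA), 1.45-fold lower in the Cbs null sample. Their ratios lay between 1.26 and 4.11 technical SDs below 0, by the value over all genes (0.22). None reached 2-fold, and 0.818% of genes above the floor on both arrays had a ratio at or below that of the lowest probe set. Against the brightest, 13.0% had. Probe sets of 1 gene can share stretches of its transcript, so they are repeated readings of 1 RNA sample and not 6 findings. Of the 6, 4 carry the _x_at suffix, given to probe sets whose probes may also match other transcripts, and the 2 without a suffix averaged -0.48. Of 30 genes with at least 6 probe sets above the floor on both arrays, 1 had all of them lower, and that was Gja1 (3.33%), while 3 had all of them higher. The spread between Gja1 probe sets was wider than in most of these genes, whose median SD was 0.17.

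Gjb2 encodes connexin 26, a channel of epithelia. Its single probe set read 91.8 in the Cbs null sample and 38.2 in the control sample. The control signal lay just below the floor, so Gjb2 was at least 2.13-fold higher in the Cbs null sample, a ratio of at least 1.09 on the log2 scale. Since only the Cbs null signal made Gjb2 count as measured, its direction was settled by that rule. No other 1-symbol probe set names Gjb2.

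Gjc1 encodes connexin 45, a low-conductance channel of smooth muscle. Its probe set read 483.1 in the Cbs null sample and 518.9 in the control sample, a log2 ratio of -0.10, within 1 technical SD of 0. The 3 connexins therefore gave 3 different readings: lower in all of 6 probe sets, higher as a bound, and apart by less than the technical spread.

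The other connexins gave little signal. Of 17 further connexin genes, 10 had a probe set and 8 of those were below the floor in both samples. Gja4, connexin 37 of endothelium, read 167.9 in the Cbs null sample and 125 in the control sample (0.43). Gjb6, connexin 30, which is known to join Gjb2 in epithelial channels, read 49.2 in the Cbs null sample and 15.3 in the control sample, at least 1.14-fold higher. Gjb6, like Gjb2, was above the floor in the Cbs null sample alone.

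**Figure D2:**
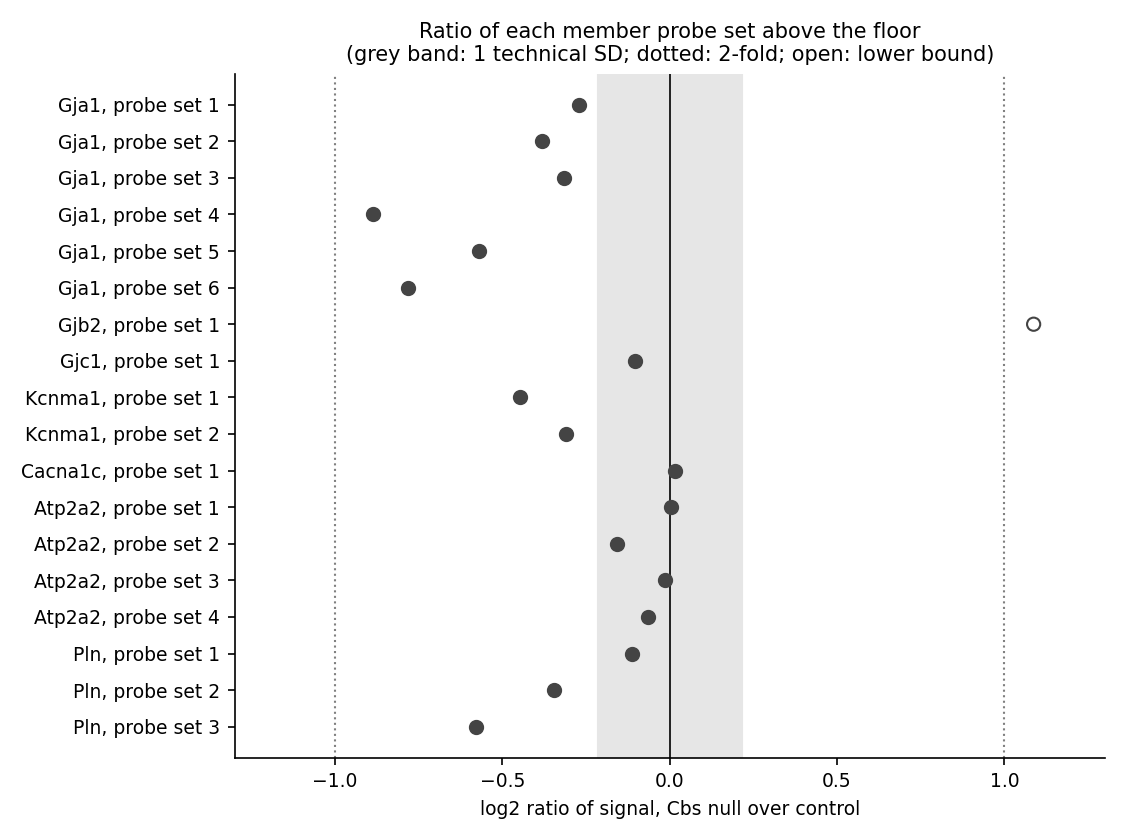
Log2 ratio of signal, Cbs null over control (horizontal axis), for the 18 probe sets above the floor on at least 1 array, numbered within a gene from the brightest. The grey band is 1 technical SD (0.22) on either side of 0, dotted lines mark 2-fold, and the open point is a lower bound. Gja1, Kcnma1 and 2 of 3 Pln probe sets lie left of the band, Gjb2 lies right of 2-fold, and Gjc1, Cacna1c and Atp2a2 lie inside it.

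Upstream sequence is shown for Gja1 and Gjb2, the connexins furthest apart here, and for Oxtr, which is known with Gja1 as a gene of labour. Each is the 250 bases before the annotated start in RefSeq's GRCm38.p6 table, written 5′ to 3′ on the gene's strand. Capitals mark matches on either strand to the AP-1 motif TGANTCA, the GC box GGGCGG, the motif of the repressors Zeb1 and Zeb2, spelled CACCTG, and the TATA box, spelled TATAAA. The matches do not overlap each other in these 3 windows.
Gja1, chr10:56377050-56377299, + strand: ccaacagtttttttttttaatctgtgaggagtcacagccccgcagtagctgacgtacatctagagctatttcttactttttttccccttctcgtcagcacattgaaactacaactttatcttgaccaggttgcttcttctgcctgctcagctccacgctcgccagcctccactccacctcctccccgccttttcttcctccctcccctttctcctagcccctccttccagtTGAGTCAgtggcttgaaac
Gjb2, chr14:57104703-57104952, - strand: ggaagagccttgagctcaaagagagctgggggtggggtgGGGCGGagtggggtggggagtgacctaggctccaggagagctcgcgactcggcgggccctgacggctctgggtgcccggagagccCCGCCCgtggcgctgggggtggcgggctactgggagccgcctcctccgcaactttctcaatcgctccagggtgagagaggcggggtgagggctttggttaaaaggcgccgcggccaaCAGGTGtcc
Oxtr, chr6:112489826-112490075, - strand: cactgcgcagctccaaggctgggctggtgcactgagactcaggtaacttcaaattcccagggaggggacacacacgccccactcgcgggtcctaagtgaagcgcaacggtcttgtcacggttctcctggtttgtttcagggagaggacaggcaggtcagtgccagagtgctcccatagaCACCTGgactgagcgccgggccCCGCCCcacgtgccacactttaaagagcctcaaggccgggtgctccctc

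Gja1 held 1 match to the AP-1 motif, 19 to 13 bases before its start, and none to the other motifs. Gjb2 held 2 GC boxes and 1 CACCTG on the antisense strand, 9 to 4 bases before the start. Oxtr held 1 CACCTG, 71 to 66 bases before the start, and 1 GC box on the antisense strand. Among 32851 RefSeq windows of the same length, 6.75% held the AP-1 motif, 32.7% the GC box, 17.2% CACCTG and 12.4% the TATA box. Promoter windows were found for 6 of the 9 genes, and Gjc1, Itpr1 and Atp2a2 had none. A match describes letters and does not show binding.

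Oxtr, the receptor for oxytocin, was below the floor in both samples. Its single probe set read 23.4 in the Cbs null sample and 6.1 in the control sample, so no fold is given. With the floor lowered to the 20th percentile of signal (10.9), Oxtr would count as at least 2.15-fold higher in the Cbs null sample. Values this dim have no reliable order on the array.

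The gene of the ligand, Oxt, read 49.2 in the Cbs null sample and 89.8 in the control sample, a log2 ratio of -0.87, with the Cbs null signal close to the floor. Of 22 contractile agonist and receptor genes, 16 had a probe set and 5 were measured. All 5 had ratios below 0, with a median of -0.22, where 46.5% of all measured genes did. Leaving out probe sets with a shared suffix moved that median to -0.87. Both F2r probe sets carry such a suffix. So does the only measured probe set of Ptger3 (-0.15), a gene picked out after its value was seen. The thrombin receptor gene F2r read 2298.8 in the Cbs null sample and 2683.1 in the control sample (-0.22), and its other probe set stood at -0.61. Lpar1, a lysophosphatidic acid receptor, stood at -0.22, -0.45 and -0.70 in its 3 probe sets. The endothelin receptor gene Ednrb, picked out after its value was seen, stood at -0.87 and -0.84 in its pair of probe sets. The prostaglandin receptor gene Ptgfr, likewise picked out, was below the floor in both samples at 23.2 in the Cbs null sample and 21 in the control sample.

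Downstream of these receptors, 16 of 26 genes of Gq signalling and myosin phosphorylation were measured, with a median of -0.09. Of these, 12 stood lower and 4 higher, where 46.5% of all measured genes stood lower. By 2-fold 0 were apart, beside 0.797% of all measured genes higher and 0.714% lower. Mylk, the myosin light chain kinase, read 5821.9 in the Cbs null sample and 6681.8 in the control sample (-0.20), and its other probe sets stood at -0.25 and -0.33. Myl9, a regulatory light chain of smooth muscle myosin, stood at -0.09.

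Kcnma1 encodes the pore of the large-conductance potassium channel that brakes smooth muscle firing. Its brighter probe set read 46.3 in the Cbs null sample and 63.1 in the control sample (-0.45). Its dimmer probe set read 47.9 in the Cbs null sample and 59.4 in the control sample (-0.31). Both were lower in the Cbs null sample by 1.44 to 2.07 technical SDs of 0.22, the value over all genes. For genes with a weaker probe set below 4 floors, as here, that SD was 0.26. All 4 signals lay close to the floor, which limits how far they could fall. Kcnmb1, the channel's smooth muscle beta subunit, read 102.5 in the Cbs null sample and 138.3 in the control sample (-0.43), while its dimmer probe set stood at -0.06. Kcnmb4, another beta subunit, was below the floor in both samples.

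Among the other potassium channel genes, 14 of 43 were measured, with a median of -0.09. Of the 14, 10 were lower, where 46.5% of all measured genes were, and 4 were higher. Of the 10, 2 were above the floor in the control sample alone, which settled their direction. Only Kcnd2, the pore of a fast transient potassium channel, passed 2-fold, beside 0.797% of all measured genes higher and 0.714% lower. It read 132.9 in the Cbs null sample and 62.3 in the control sample, 2.13-fold higher. The second Kcnd2 probe set was 1.61-fold higher, and the third, below the floor in the control sample, at least 1.18-fold higher. Kcne2, a small accessory subunit picked out after its value was seen, went the other way at 65.4 in the Cbs null sample and 130.3 in the control sample (-0.99).

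Cacna1c encodes the pore of the L-type calcium channel, the main route of calcium entry in this muscle. Its probe set read 145.5 in the Cbs null sample and 143.8 in the control sample, a log2 ratio of 0.02. Cacna2d1, an auxiliary subunit, read 94.8 in the Cbs null sample and 76.7 in the control sample (0.31). The auxiliary subunit gene Cacnb2 read 40.6 in the Cbs null sample, below the floor, and 47.3 in the control sample. Cacnb3 had no probe set of its own in the annotation used.

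Of 34 other calcium entry genes, 15 were measured, with a median of 0.10. There 8 were higher and 7 lower, where 46.5% of all measured genes were lower. Being above the floor in 1 sample alone settled the direction of 1 of the 8 and 2 of the 7. By 2-fold 0 were apart, beside 0.797% of all measured genes higher and 0.714% lower. Ano1, a calcium-activated chloride channel that depolarises smooth muscle, read 195.3 in the Cbs null sample and 242.5 in the control sample (-0.31). Trpm7, a channel with its own kinase domain, stood at 0.10 and 0.04 in its brighter probe sets. A lower Kcnma1 reading thus stood beside an L-type pore reading that was nearly equal in both samples, and the difference between these ratios was not tested.

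Atp2a2 encodes SERCA2, the pump that returns calcium to the store. Its brightest probe set read 1517.9 in the Cbs null sample and 1514.2 in the control sample. The others read 626.8, 270.1 and 156 in the Cbs null sample, against 699.2, 272.5 and 163.3 in the control sample. The 4 ratios averaged -0.06 ± 0.07 (SD over 4 probe sets of the same RNA). Each was within 1 technical SD of 0 by the value over all genes (0.22). For brighter pairs that SD was 0.15, and the second brightest probe set, at -0.16, lay beyond it. Atp2a2 was the most evenly read of the genes with several probe sets.

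Pln encodes phospholamban, the small membrane protein that restrains SERCA2 until it is phosphorylated. Its brightest probe set read 202.2 in the Cbs null sample and 218.7 in the control sample (-0.11). The second read 102.9 in the Cbs null sample and 130.7 in the control sample (-0.35). The third read 94.6 in the Cbs null sample and 141.3 in the control sample (-0.58). All 3 were lower in the Cbs null sample, with a mean of -0.35 ± 0.23 (SD over 3 probe sets of the same RNA), 1.27-fold. Of 897 genes with at least 3 probe sets above the floor on both arrays, 17.9% had all of them lower, so 3 of 3 is not unusual. The related SERCA inhibitor gene Sln was below the floor in both samples.

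Itpr1, the inositol trisphosphate receptor gene best known from smooth muscle, had no reading, but its relatives did. Itpr2 read 188.5 in the Cbs null sample and 98.5 in the control sample in its brightest probe set, 1.91-fold higher. Its next probe sets were 1.65-fold and at least 1.60-fold higher, and its other 2 were below the floor in both samples. Itpr3 went the other way at 115.6 in the Cbs null sample and 136 in the control sample (-0.23), and Atp2a3, a SERCA pump of other cell types, stood at 0.23.

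Of 28 other calcium store and extrusion genes, 17 were measured, with a median of -0.003. There 8 were higher and 9 lower, where 46.5% of all measured genes were lower. Being above the floor in 1 sample alone settled the direction of 2 of the 8 and 2 of the 9. By 2-fold 0 were apart, beside 0.797% of all measured genes higher and 0.714% lower. Calr, the store's calcium-binding chaperone, read 3014.9 in the Cbs null sample and 3788.1 in the control sample (-0.33), and its other probe sets stood at -0.35 and -0.28. Fkbp1a, which binds calcium release channels, stood at -0.11 in its brightest probe set and lower in the other 3 that were measured, down to -0.39.

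Markers of the cells that could carry these transcripts also differed between the samples. Of 22 smooth muscle markers, 17 were measured, with a median of -0.30. All 17 were lower in the Cbs null sample, where 46.5% of all measured genes were. The summed signal of the smooth muscle markers was 61230.4 in the Cbs null sample and 73093.9 in the control sample. Ratios ran from -0.87 to -0.07, with the 2 brightest markers, Acta2 and Tpm2, at -0.07 and -0.18. Other probe sets stood at -0.31 for Acta2 and at -0.28, 0.12 and -0.34 for Tpm2. Of the 18 on the array, 1 was below the floor in both samples (Synpo2, named after its value was seen). By the brightest probe set, as that median was taken, Kcnma1 stood at -0.45, below it, and Gja1 at -0.27 and Pln at -0.11, both less far from 0 than it. Atp2a2 and Cacna1c stood at 0.004 and 0.02 by the same reading. Averaged over their probe sets, Gja1, Kcnma1 and Pln stood at -0.53, -0.38 and -0.35. The smooth muscle median with probe sets averaged was -0.30. In RNA of whole tissue, fewer muscle cells and less RNA per cell cannot be told apart. The part of muscle content in the Gja1 reading was not tested.

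Epithelial markers stood on the other side of 0. Of 22, 21 were measured, with a median of 0.54, and all 21 were higher in the Cbs null sample. Over all measured genes, 46.5% had a ratio below 0. Of the 21, 2, Muc1 among them, were above the floor in the Cbs null sample alone, which settled their direction. The other 19 had a median of 0.50. The summed signal of the epithelial markers was 10434.1 in the Cbs null sample and 7038.7 in the control sample. Muc1, a cell-surface mucin, was at least 2.80-fold higher, the lactoferrin gene Ltf 2.69-fold and the claudin gene Cldn3 2.07-fold. Their part in the Gjb2 reading was not tested. Macrophage and dendritic cell markers were also higher, 16 of 17 measured, with a median of 0.56, where 46.5% of all measured genes were lower. Of the 16, 1 was above the floor in the Cbs null sample alone. The summed signal of that list was 9617.1 in the Cbs null sample and 6575 in the control sample, with H2-Aa and Cd74 at 0.46 and 0.49.

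Decidual stroma markers had a median of -0.01 over 15 measured genes, 7 higher and 8 lower, where 46.5% of all measured genes were lower. Of the 8, 3 were above the floor in the control sample alone. Among these 3 were Tdo2, at least 15.9-fold lower, and Prl8a2, at least 9.82-fold lower. The summed signal of the decidual markers was 12240.5 in the Cbs null sample and 15211.1 in the control sample. Des, at 1868.9 in the Cbs null sample and 2994 in the control sample, is in this sum and in that of smooth muscle, since it stands on both lists, and is named for that reason. The part of decidual cells in the Gja1 reading was not tested either. Endothelial markers, the cells of Gja4, had a median of -0.02 over 15 measured genes. There 6 were higher and 9 lower, again beside 46.5% of all measured genes lower. Their summed signal was 4179.8 in the Cbs null sample and 4068.9 in the control sample. Ramp2 and Esam, at 0.05 and 0.15, were among the 6. Nerve and skeletal muscle markers were mostly below the floor, with 3 measured genes each. Of the nerve and glia list, Ncam1 stood at -0.39 and Mbp at 0.21, and of the skeletal muscle list, the troponin gene Tnni2 was 2.12-fold lower and the actin gene Acta1 2.03-fold.

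**Figure D3:**
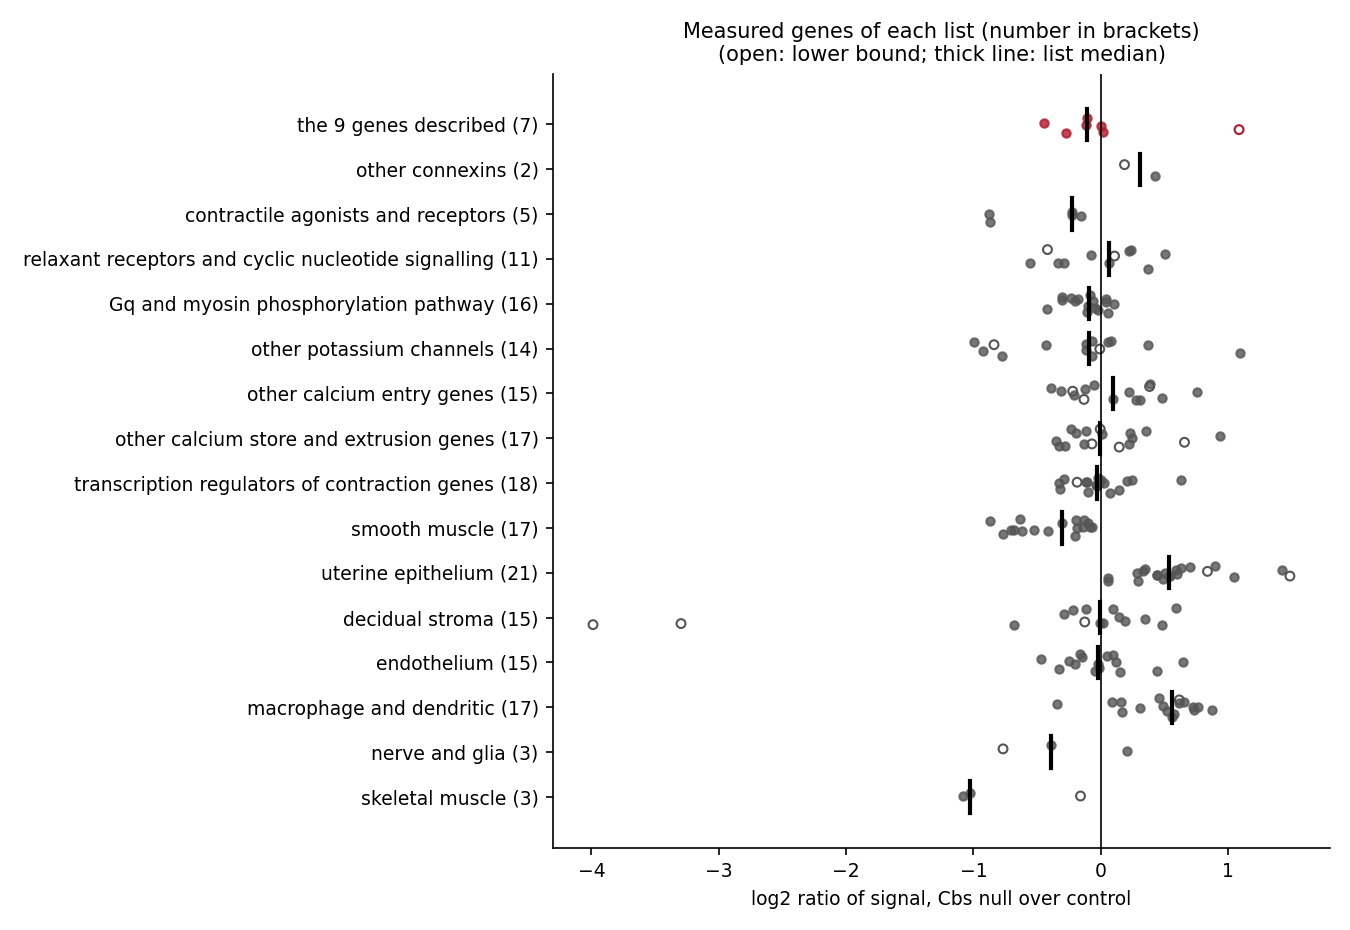
Log2 ratio of signal, Cbs null over control (horizontal axis), of every measured gene by list, with the number of measured genes in brackets and the list median as a thick line. The top row holds the genes described here, and open points are lower bounds. The 17 smooth muscle markers lie left of 0 and the 21 epithelial markers right of it, while medians of the channel and store lists lie between -0.09 and 0.10.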

How the data were processed

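Biotin-labelled cRNA of each sample was prepared using 2 microg of total RNA, per the labels' protocols. The deposited intensity table holds 1 linear signal per probe set and array. The submitters' processing notes name GCOS 1.4. How signals were summarised, the scaling target and detection calls are not stated there. After trimming 2% at each end, mean intensity was 200.07 for Cbs null and 200.08 for control, so values were used as they stood, and each difference is relative to the whole array.

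Of 22690 probe sets, 64 were Affymetrix controls. By platform annotation, 20380 had 1 symbol, 691 had several and 1555 had none. Gene identifiers of 20351 were found in RefSeq (GRCm38.p6). Each gene was read from its brightest probe set, by mean log2 signal over both arrays. Signals under 43.2 were raised to that floor, and the size rule was 2-fold. The technical SD was the SD of the difference in log2 ratio between the 2 brightest probe sets of a gene, divided by the square root of 2. The number of arrays limits the precision, since each group had 1.

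The members and the 15 gene lists (8 pathway, 7 cell type marker) were chosen with earlier results of these data known. Named were all members, partner subunits, Cbs and, of each list, up to 4 genes at least 2-fold apart or else the 2 brightest. Any others are said to be picked out after their values were seen. Alternatives were other floors, a pseudocount of 32, other normalizations, probe set choices and fold thresholds, and list means. The computation was tested on simulated data, in Python 3.11.15 with numpy 2.4.6 and pandas 2.3.3.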

Additional observations from a re-analysis of the deposited data

How the results depend on the processing

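No paired analysis was possible because each group had a single array and no result came from a test. Gjb2, the only gene described here at least 2-fold apart, kept its sign. That says little, since its single probe set left these settings almost no room to reverse it. Other named genes at least 2-fold apart were not recomputed singly. Of 211 recomputed values, 187 stayed within the technical SD or within 1.5 times the count. The count of the genes described here that were at least 2-fold higher, 1 as reported, was 2 under a 20th percentile floor, where Oxtr was added. It was 0 under a 60th percentile floor, with a pseudocount of 32 or at 3-fold. Gjb2 stood at 0.82 with the pseudocount. With all probe sets of a gene averaged, Gja1 stood at -0.53 and Pln at -0.35. Over all genes, 305 were higher and 286 lower at 1.5-fold, 16 and 22 at 3-fold, 242 and 213 under the 20th percentile floor, and 30 and 31 under the 60th. The contractile agonist and receptor median was -0.87 without shared-suffix probe sets, -0.46 with probe sets averaged and -0.47 as a mean. The mean of the decidual list was -0.46. Skeletal muscle genes stood at -0.76 as a mean and -0.74 with probe sets averaged. The nerve and glia median was -0.77 without shared-suffix probe sets and -0.10 under the 60th percentile floor, and that of other connexins was 0.56 with the pseudocount. Gjb2 and Kcnma1 had no value under the 60th percentile floor (120.3), and Cacna1c none without shared-suffix probe sets. The cause of these shifts was not tested, beyond the floor itself.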

Other observations

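Genes of relaxant receptors and cyclic nucleotide signalling, phosphodiesterases included, were read on both sides of 0. Of 20, 11 were measured, with a median log2 ratio of 0.06. In the Cbs null sample 6 were higher and 5 lower, where 46.5% of all measured genes were lower. Being above the floor in 1 sample alone settled the direction of 1 of the 6 and 1 of the 5. By 2-fold 0 were apart, beside 0.797% of all measured genes higher and 0.714% lower. The prostaglandin E2 receptor gene Ptger4 read 1119.3 in the Cbs null sample and 949.6 in the control sample (0.24) in its brighter probe set, and -0.04 in the dimmer. Npr2, a natriuretic peptide receptor, stood at -0.08.

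Transcription factor genes known from the control of contraction genes differed little. Of 23, 18 were measured, with a median of -0.02. There 7 were higher and 11 lower, where 46.5% of all measured genes were lower. Of the 11, 1 was above the floor in the control sample alone, which settled its direction. By 2-fold 0 were apart, beside 0.797% of all measured genes higher and 0.714% lower. Jund, a subunit of AP-1, read 1793.1 in the Cbs null sample and 1788.8 in the control sample, and Sp1, which binds GC boxes, stood at 0.25. Fos, picked out after its value was seen, read 532.7 in the Cbs null sample and 344.4 in the control sample, 1.55-fold higher. Zeb1, likewise picked out, read 629.3 in the Cbs null sample and 768 in the control sample (-0.29), and Pgr, the progesterone receptor gene and also picked out, was close to the floor at 36.8 in the Cbs null sample and 49.1 in the control sample.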
